A study of Mus musculus with 8 samples.

Results

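The genes of the connecting cilium and of intraflagellar transport (IFT) were examined in photoreceptor cells of Lpcat1 KO mice. The members are 49 genes known for these functions, chosen by name and matched through the RefSeq accession of each probe. All 49 had a named probe, among 22911 genes with one, and all 49 passed the filter on dim probes, among 14844 genes that did, each with its brightest probe well above background on 8 of 8 arrays. Gene expression was measured on single-color Agilent arrays, with 4 arrays labelled as heterozygous for Lpcat1 (Lpcat1 HZ) and 4 labelled Lpcat1 KO, in cells taken from C57BL/6 mice at P8. Cells were dissociated from the retina and collected by magnetic sorting for CD73, which the authors used as a marker of photoreceptor cells. The methods describe a deletion of Lpcat1, which encodes an enzyme that makes saturated phosphatidylcholine, on a C57BL6/N background, crossed with C57BL6/J so that no animal was homozygous for the Crb1 mutation of the former strain. The HZ controls carry a single deleted allele, and no wildtype array was used here. The labels do not say how many animals gave each array, so p-values measure only the spread between these arrays, which may be technical. A single slide held the 8 arrays, the KO arrays in its row 1 and the HZ arrays in its row 2, and an effect of the row cannot be told apart from one of genotype.

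The Lpcat1 probe had HZ values of -0.81, -0.95, -1.02 and -1.17 and KO values of -0.97, -1.16, -1.11 and -0.85, given as normalized log2 signal in the order of the replicate numbers. The groups overlapped, and the difference was -0.037 (standard error 0.11, limma adjusted p = 0.931). The probe did not separate the labels, and where it lies with respect to the deletion was not analysed. HZ and KO therefore stand for the labels of the arrays. The normalized log2 signal is the log2 of the background-subtracted intensity minus the 75th percentile of the same array, so that 0 is the brightness of a spot at that percentile. A difference is the KO mean minus the HZ mean on this scale. In a bulk sample, fewer cells of a type and less RNA per cell cannot be told apart.

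Photoreceptor cells have a modified primary cilium. The outer segment is its enlarged tip, and the connecting cilium, a long transition zone, is the bridge through which every outer segment protein passes from the inner segment where it is made. IFT-B trains are drawn towards the tip by kinesin-2, IFT-A trains return with dynein-2, the BBSome is an adaptor that carries membrane proteins on these trains, and Arl3 with its partners releases lipid-anchored proteins from their soluble carriers.

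The promoters of the members are shown first, because ciliary genes share a known binding motif for RFX transcription factors, the X-box, and photoreceptor genes one for CRX. RefSeq windows from 250 bases before to 50 bases after the start of a gene (GRCm38.p6) were found for 44 of 49 members, all but Dync2li1, Ift122, Ift80, Ift81 and Tmem67. The search covered 3 motifs on both strands. The X-box half-site GTTGCC was in the windows of 19 of 44 members (43.2%), and in those of 14.1% of all 27025 genes with a window. The X-box consensus, which can begin with that half-site, was in 5 of 44 (11.4%, against 1.75%), namely Ahi1, Bbs1, Ift57, Kif17 and Tctn1. The CRX-type motif TAATCC was in 3 of 44 (6.82%, against 8.14%), namely Bbs1, Rpgrip1 and Unc119. These shares describe letters in the windows, not bound sites. Of the 19 members with the half-site, 10 had a negative and 9 a positive difference between the groups.

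The stretches below lie upstream of the start and show a selection of the matches. They come from members described in the following paragraphs, with the matched letters in capitals on the strand of the gene. Ift140 and Kif3a carry the half-site, Ift57 and Kif17 an X-box consensus, and Rpgrip1, Unc119 and Bbs1 the CRX-type motif. The half-site of Ift140 and the CRX-type motif of Rpgrip1 and Unc119 appear as their reverse complements.
Ift140 (chr17:25015953-25016006, + strand): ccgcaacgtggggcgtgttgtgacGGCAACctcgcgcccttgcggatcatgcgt
Kif3a (chr11:53567247-53567300, + strand): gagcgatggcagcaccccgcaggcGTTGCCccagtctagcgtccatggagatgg
Ift57 (chr16:49699210-49699270, + strand): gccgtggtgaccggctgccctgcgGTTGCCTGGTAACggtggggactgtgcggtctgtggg
Kif17 (chr4:138262154-138262214, + strand): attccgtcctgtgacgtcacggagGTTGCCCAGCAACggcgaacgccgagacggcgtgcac
Rpgrip1 (chr14:52110851-52110902, + strand): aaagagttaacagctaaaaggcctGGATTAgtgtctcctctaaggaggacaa
Unc119 (chr11:78345442-78345495, + strand): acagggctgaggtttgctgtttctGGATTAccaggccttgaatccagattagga
Bbs1 (chr19:4906795-4906848, - strand): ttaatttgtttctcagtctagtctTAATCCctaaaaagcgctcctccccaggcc
In Ahi1, Tctn1 and Bbs1 the X-box consensus did not lie wholly upstream and is not printed.

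Small differences in both directions were measured among the 49 members, and 0 members passed an adjusted threshold. Limma called 0 members at a fold change over 1.2 with an adjusted p under 0.05, where 0% of the 14844 genes were called lower and 0% higher in KO. At a fold change over 1.5 with an adjusted p under 0.5, the looser thresholds of the methods, 0 members were called, where 1.13% of genes were called lower and 0.33% higher. Both counts of members were also 0 with the replicate number as a block, with quantile normalization, with trend and robust eBayes and with the t-test of the methods. Leaving out replicate 3 of either group, or KO replicate 4, left 0 calls over all probes at the looser thresholds. At an unadjusted p under 0.05, 1 member was lower, Ahi1, and 3 were higher, Ift74, Arl6 and Dync2li1. The number in both directions, 4 (8.16%, background 9.3%), was 8 with the t-test of the methods (16.3%, background 11.4%) and 7 with trend and robust eBayes (14.3%, background 11.2%). It was 2 with quantile normalization (4.08%, background 8.74%) and 2 with no filter on dim probes (4.08%, background 6.53%). Leaving out HZ replicate 3 gave 1 (2.04%, background 6.63%), KO replicate 4 also 1 (2.04%, background 6.9%) and KO replicate 3 gave 2 (4.08%, background 7.83%). It was again 4 under the block (8.16%, background 12.5%), with Bbs1 in place of Arl6. By direction, 3.49% of all genes were lower and 5.81% higher, against 2.04% and 6.12% of the members. Every KO array lay below every HZ array for 1 member, Ahi1 (2.04%, background 2.52%), and above for 4, Ift74, Arl6, Dync2h1 and Dync2li1 (8.16%, background 5.48%).

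The median difference of the members was 0.039, beside 0.029 over all tested genes. In the 4 pairs formed by the replicate numbers it was 0.019, 0.023, 0.046 and 0.076. Over all genes the pair medians were 0.048, -0.0025, 0.027 and 0.085, above those of the members in pairs 1 and 4. Of the members, 29 of 49 had a positive difference (59.2%), as did 56.8% of all genes. Arrays labelled KO were higher in 4 of 4 pairs for 14 members (28.6%, background 18.7%) and lower in 4 of 4 pairs for 3, Bbs5, Ahi1 and Cc2d2a (6.12%, background 9.84%). The members varied less within groups than genes did on the whole. Their median SD was 0.12 for HZ and 0.091 for KO, beside 0.17 and 0.15 over all genes. All members were well above background on 8 of 8 arrays, a filter that 13417 of the 14844 genes passed. What signal strength contributes to the smaller SD and to the intervals was not tested. The 95% confidence interval of the difference lay within a 1.5-fold change in either direction for 41 of 49 members (83.7%, against 68.1% of all genes). The exceptions were Bbs2, Ttc8, Arl6, Cep290, Rpgrip1l, Ahi1, Kif3a and Unc119. The plot of differences by role shows the intervals.

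**Figure D1:**
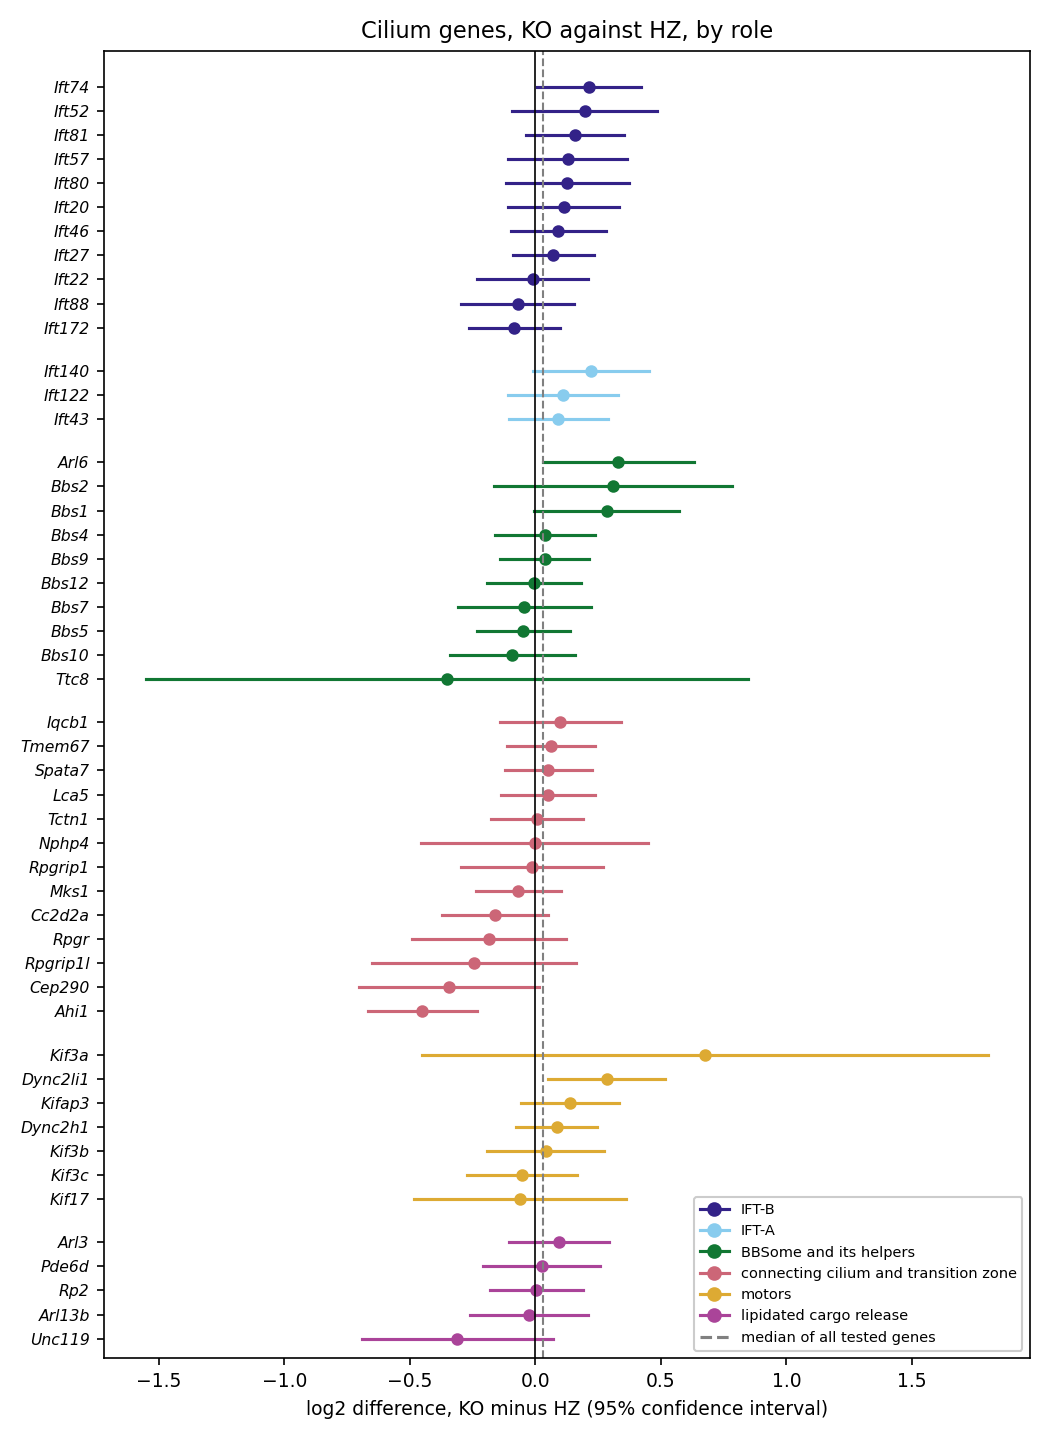
Log2 difference, KO minus HZ, of the 49 cilium genes by role, with points for the brightest probe's estimate, bars for its 95% confidence interval and a dashed line at the median of all tested genes (0.029). The interval of Ahi1 (-0.67 to -0.23) lies below 0, those of Ift74, Arl6 and Dync2li1 above, and those of Ttc8 and Kif3a are the widest.

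Subunits of the IFT trains had mostly small positive differences, and 0 of 14 passed an adjusted threshold. Of the 11 IFT-B members, 8 had a positive difference, with a median of 0.11, and all 3 IFT-A members did, with a median of 0.11. In the 4 pairs the IFT-B median was 0.027, 0.023, 0.11 and 0.20, and the IFT-A median 0.14, 0.11, 0.13 and 0.15. The IFT-B median was 0.070 without KO replicate 4 and 0.067 with quantile normalization. The IFT-A median was 0.064 without KO replicate 1, 0.17 without HZ replicate 1 and 0.052 with quantile normalization. Over all arrays both medians are above the 0.029 of all genes, and their difference from it was not tested. In pair 1 the IFT-B median was below that of all genes (0.048). Ift74, which with Ift81 forms the tubulin-binding part of the train, had HZ values of 2.50, 2.52, 2.42 and 2.64 and KO values of 2.66, 2.67, 2.71 and 2.89. The groups did not overlap, and the difference was 0.21 (standard error 0.090, adjusted p = 0.599), but a second Ift74 probe gave -0.14. With normexp background correction the difference was 0.068. Its partner Ift81 had HZ values of 4.24, 4.02, 4.07 and 4.12 and KO values of 4.21, 4.21, 4.31 and 4.34. The groups overlapped through HZ replicate 1, and the difference was 0.16 (standard error 0.084, adjusted p = 0.667), or 0.090 with normexp background correction and 0.088 with quantile normalization. Ift52, a subunit of the IFT-B core, had HZ values of 1.27, 1.39, 1.02 and 0.88 and KO values of 1.37, 1.42, 1.26 and 1.30. It was higher in 4 of 4 pairs with overlapping groups, by 0.20 (standard error 0.13, adjusted p = 0.702), or 0.11 without HZ replicate 4, and HZ replicates 3 and 4 were the lowest arrays.

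Ift88, a core subunit whose partial loss is known to disturb outer segment formation, had HZ values of 3.18, 2.85, 3.11 and 3.19 and KO values of 3.09, 3.00, 2.98 and 2.98. HZ replicate 2 was the lowest array and the other 3 HZ arrays were above all KO arrays. The difference was -0.071 (standard error 0.098, adjusted p = 0.846), and with normexp background correction 0.095. Leaving out HZ replicates 1, 2 and 4 in turn gave -0.038, -0.15 and -0.035. The remaining 7 IFT-B members lay between -0.084 (Ift172) and 0.13 (Ift57), 5 of them above 0. Among them, Ift57, Ift80 and Ift27 were higher on the KO array in 4 of 4 pairs. In the IFT-A complex, which carries cargo back from the tip, Ift140 had HZ values of 2.47, 2.31, 2.31 and 2.28 and KO values of 2.61, 2.42, 2.47 and 2.75. The groups overlapped through HZ replicate 1, and all 4 pairs were higher, by 0.14, 0.11, 0.17 and 0.47, with a difference of 0.22 (standard error 0.10, adjusted p = 0.620). A second Ift140 probe gave -0.00074, and normexp background correction 0.14 for the first. Ift122, of the IFT-A core, had HZ values of 3.66, 3.42, 3.39 and 3.39 and KO values of 3.71, 3.53, 3.51 and 3.54. Replicate 1 was the highest array of both groups, and the difference was 0.11 (standard error 0.096, adjusted p = 0.763), or 0.052 with quantile normalization. Leaving out HZ replicate 1 gave 0.17, and leaving out KO replicate 1 gave 0.064. Ift43, a peripheral subunit, had HZ values of 3.54, 3.67, 3.62 and 3.63 and KO values of 3.80, 3.75, 3.73 and 3.54. KO replicate 4 lay with the lowest arrays, and the difference was 0.091 (standard error 0.085, adjusted p = 0.778), or 0.15 without KO replicate 4, 0.060 without KO replicate 1 and 0.030 with quantile normalization.

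**Figure D2:**
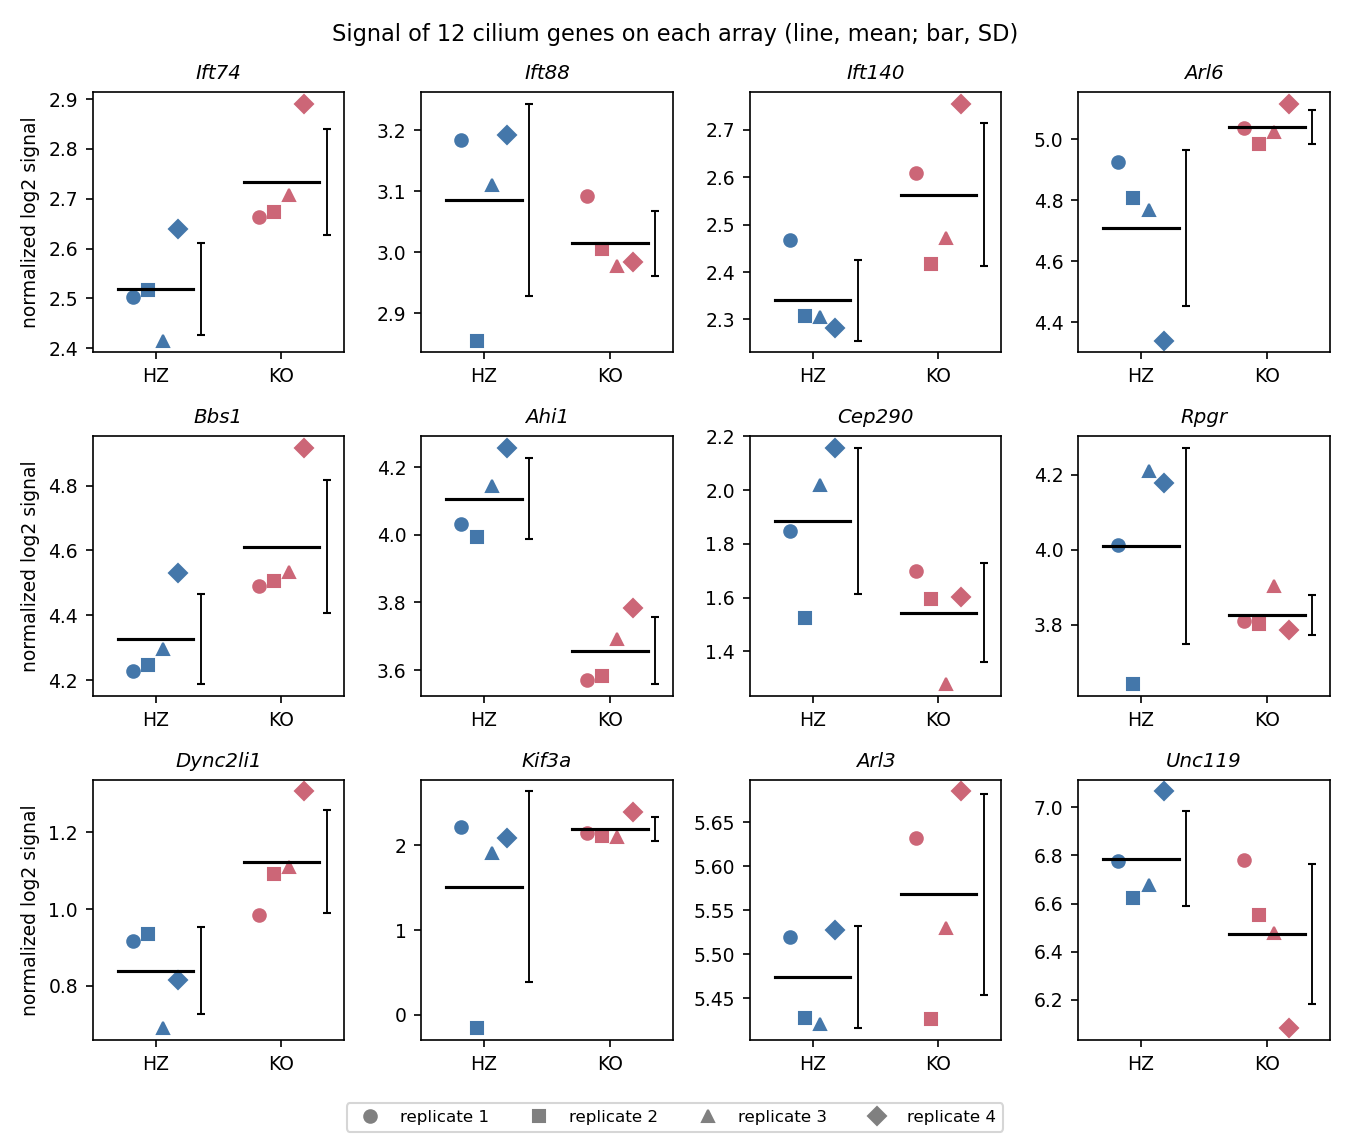
Normalized log2 signal of 12 cilium genes on each array, with symbols for the replicate number, lines for group means and bars for the SD (4 arrays a group), each panel on its own scale. Ahi1 is lower on every KO array, Ift74, Arl6 and Dync2li1 are higher on every KO array, and Kif3a has HZ replicate 2 apart from the other 7 arrays at -0.16.

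Differences of the BBSome and its helpers lay on both sides of 0. Of these 10 genes, which include Arl6 and the chaperonin-like Bbs10 and Bbs12, 5 had a positive and 5 a negative difference, with a median of 0.015 that turned negative with quantile normalization (-0.042), with a percentile taken over detected probes (-0.015) and without KO replicate 1 (-0.0085). It was 0.0026 without HZ replicate 2, and 0.036, 0.048, 0.038 and 0.069 in the 4 pairs. Arl6, the small GTPase that recruits the BBSome to membranes, had HZ values of 4.93, 4.81, 4.77 and 4.34 and KO values of 5.04, 4.99, 5.02 and 5.12. The groups did not overlap, although HZ replicate 4 lay well below the other HZ arrays, and the difference was 0.33 (standard error 0.13, adjusted p = 0.586). Without HZ replicate 4 it was 0.21, and with normexp background correction 0.12. Bbs1, the subunit that binds Arl6, had HZ values of 4.23, 4.25, 4.30 and 4.53 and KO values of 4.49, 4.50, 4.53 and 4.92. Each KO array was above the HZ array of the same number, by 0.26, 0.26, 0.24 and 0.39, and the groups overlapped only because HZ replicate 4 reached the lower KO arrays. The difference was 0.29 (standard error 0.13, adjusted p = 0.616), with 0.041 for normexp background correction and 0.18 without KO replicate 4. Bbs2, a subunit of the BBSome core, had HZ values of 1.66, 1.41, 1.40 and 0.70 and KO values of 1.33, 1.65, 1.73 and 1.70. Its difference of 0.31 (standard error 0.21, adjusted p = 0.711) was 0.11 without HZ replicate 4, the lowest array, and -0.0086 with normexp background correction. Of the other 7, Bbs4, Bbs5, Bbs7, Bbs9, Bbs10 and Bbs12 lay between -0.092 and 0.039. Ttc8, the remaining subunit, had a difference of -0.35 that rested on KO replicate 2, at 1.2 against 3.46 to 3.65 on the other KO arrays, and was 0.25 without it, but -0.57 without KO replicate 1 and -0.57 without KO replicate 4.

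Among the 13 genes of the connecting cilium and transition zone, 8 had a negative difference, and the median was -0.014, or 0.0022 with the authors' processed values. With an array left out it ranged from -0.073 without KO replicate 4 to 0.011 without KO replicate 3. In the 4 pairs it was -0.0051, -0.035, -0.15 and 0.020. The members with the most negative differences were Ahi1, Cep290, Rpgrip1l and Rpgr. That of Rpgrip1l was -0.24, or -0.073 without KO replicate 4, its lowest array, and normexp background correction gave -0.52. Ahi1, a transition zone protein mutated in Joubert syndrome, had HZ values of 4.03, 3.99, 4.14 and 4.26 and KO values of 3.57, 3.58, 3.69 and 3.78. Every KO array was below every HZ array, and the 4 pairs differed by -0.46, -0.41, -0.45 and -0.48. The difference was -0.45 (95% confidence interval -0.67 to -0.23), a 1.37-fold lower signal, with an adjusted p of 0.362 that did not pass the stricter threshold of 0.05. Its fold change was also below the 1.5 of the looser pair of thresholds. The difference did not appear on the other probes of Ahi1. A second probe gave -0.067 and the other 0.10, and the mean of the 3 probes differed by -0.14. Which transcripts each probe detects was not analysed here.

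Cep290, which links the microtubules of the connecting cilium to its membrane, had HZ values of 1.85, 1.53, 2.02 and 2.16 and KO values of 1.70, 1.59, 1.28 and 1.60. The groups overlapped through HZ replicate 2, and the difference was -0.34 (standard error 0.16, adjusted p = 0.622). It was -0.46 without HZ replicate 2 and -0.15 with normexp background correction. Rpgr, a regulator of protein entry that is mutated in X-linked retinitis pigmentosa, had HZ values of 4.01, 3.64, 4.21 and 4.18 and KO values of 3.81, 3.80, 3.90 and 3.79. As for Ift88, HZ replicate 2 was the lowest array and the other 3 HZ arrays were above all KO arrays. The difference was -0.18 (standard error 0.13, adjusted p = 0.727), all 5 of its probes gave a negative value, and normexp background correction gave -0.0046. Leaving out HZ replicate 2 gave -0.31, and leaving out HZ replicate 3 gave -0.12. Rpgrip1, which anchors Rpgr in the connecting cilium and whose promoter stretch with the CRX-type motif is given above, had HZ values of 6.80, 6.66, 6.96 and 7.20 and KO values of 6.98, 6.88, 6.81 and 6.89. Its groups overlapped, and the sign of the difference of -0.014 (standard error 0.12, adjusted p = 0.978) turned under several alternatives, quantile normalization among them (0.0099). Cc2d2a, of the complex that gates the transition zone, had HZ values of 3.23, 3.06, 3.33 and 3.16 and KO values of 2.94, 3.01, 3.05 and 3.15. KO arrays were lower in 4 of 4 pairs with overlapping groups, by -0.16 (standard error 0.092, adjusted p = 0.682), and a second probe gave 0.18. The other 8 members lay between -0.24 (Rpgrip1l) and 0.099 (Iqcb1), 5 of them above 0.

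The motors include the kinesin-2 subunits and dynein-2, and 5 of the 7 genes had a positive difference, with a median of 0.085. The median was 0.050 with quantile normalization and 0.055 with a percentile taken over detected probes. In the 4 pairs it was -0.031, 0.095, 0.14 and 0.13. Dync2li1, the light intermediate chain of dynein-2, had HZ values of 0.92, 0.94, 0.69 and 0.82 and KO values of 0.98, 1.09, 1.11 and 1.31. The groups did not overlap and all 4 pairs were higher, with a difference of 0.28 (standard error 0.10, adjusted p = 0.540). With normexp background correction it was 0.11. The groups of Dync2h1, the heavy chain of the same motor, did not overlap either, at a difference of 0.085, or 0.047 with quantile normalization. Kif3a, a motor subunit of kinesin-2, had HZ values of 2.22, -0.16, 1.90 and 2.09 and KO values of 2.14, 2.11, 2.10 and 2.40. It was the largest positive difference of the members, 0.68 (standard error 0.49, adjusted p = 0.727), and rested on HZ replicate 2, far below the other arrays. Without that array the difference was 0.12, and a second Kif3a probe, on which HZ replicate 2 had 1.76 beside 1.71 to 1.88 on the other HZ arrays, gave -0.12. Kifap3, its accessory subunit, had HZ values of 2.74, 2.74, 2.84 and 2.74 and KO values of 2.74, 2.94, 2.98 and 2.95. KO replicate 1 lay at the level of the HZ arrays, and the difference was 0.14 (standard error 0.084, adjusted p = 0.694). Kif3b, Kif3c and Kif17 lay between -0.061 (Kif17) and 0.041 (Kif3b).

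Of the 5 genes that release lipidated cargo, 4 lay within -0.025 and 0.094, and Unc119 lay apart. Unc119, the carrier of the myristoylated alpha subunit of transducin, had HZ values of 6.78, 6.62, 6.68 and 7.07 and KO values of 6.78, 6.55, 6.48 and 6.08. KO replicates 2, 3 and 4 were below all HZ arrays and KO replicate 1 was not. The difference of -0.31 (standard error 0.17, adjusted p = 0.667) was -0.18 without KO replicate 4, and a second probe gave 0.16. Pde6d, the carrier of prenylated proteins such as the catalytic subunits of the rod phosphodiesterase, had HZ values of 4.33, 4.40, 4.36 and 4.60 and KO values of 4.38, 4.36, 4.40 and 4.64. Replicate 4 was the highest array of both groups, and the difference of 0.025 (standard error 0.10, adjusted p = 0.953) was -0.047 with quantile normalization. Arl3, the GTPase that opens both carriers, had HZ values of 5.52, 5.43, 5.42 and 5.53 and KO values of 5.63, 5.43, 5.53 and 5.68. Its groups overlapped, with a difference of 0.094 (standard error 0.087, adjusted p = 0.774), or 0.024 with quantile normalization, 0.055 without KO replicate 4 and 0.14 without KO replicate 2. Arl13b, which activates Arl3, had HZ values of 2.51, 2.26, 2.23 and 2.40 and KO values of 2.43, 2.16, 2.29 and 2.40. The groups overlapped and the difference was -0.025 (standard error 0.10, adjusted p = 0.952), or 0.023 with normexp background correction. Rp2, which returns Arl3 to its inactive state, differed by 0.0034.

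**Figure D3:**
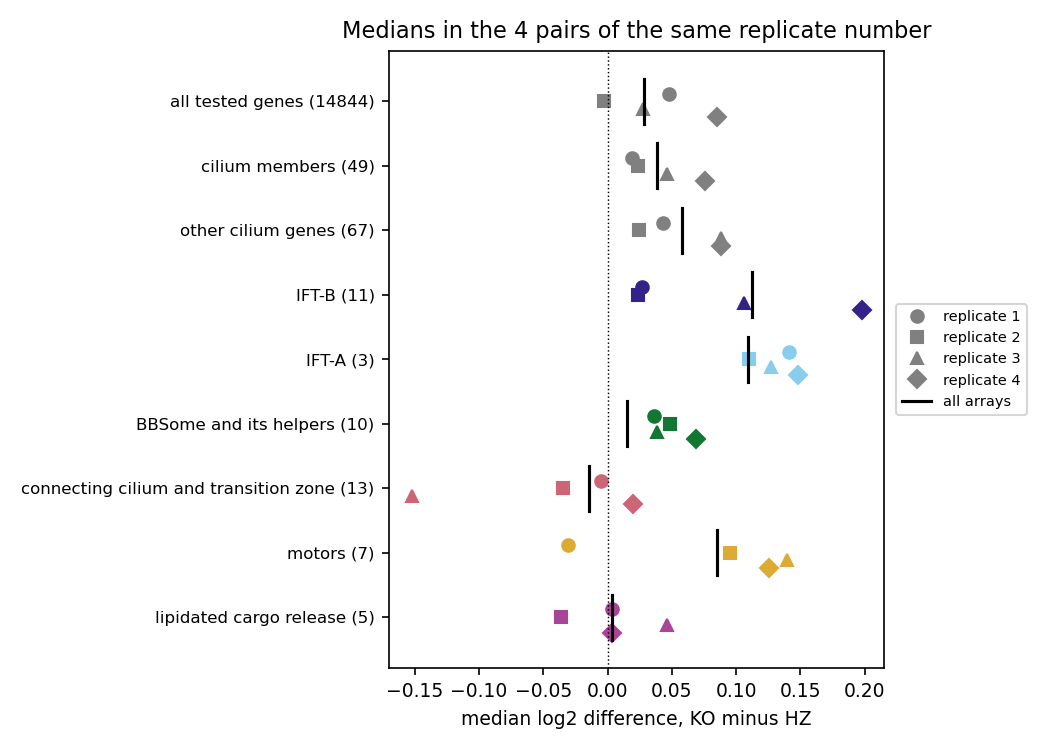
Median log2 difference, KO minus HZ, of each role group, with the number of genes in brackets, for each pair of replicate numbers (symbols) and over all arrays (black lines). The IFT-B, IFT-A and BBSome group medians are above 0 in 4 of 4 pairs. The median of all genes (0.048 in pair 1, 0.085 in pair 4) exceeds that of IFT-B in pair 1 and of the BBSome group in pairs 1 and 4. The connecting cilium group, whose median is above 0 with the authors' processed values and without KO replicate 3, runs from -0.15 to 0.020.

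Different probes of a member often gave different signs. Of 28 members with 2 or more tested probes, 14 had probes of opposite sign (50%), against 43.4% of the 5520 genes with as many, a similar share. To test the difference between probes, the signal of the brightest probe minus that of the second brightest was fitted with limma over all 5520 genes, a test chosen after these values had been seen. At an adjusted p under 0.05, limma called 0 genes and 0 members. At an unadjusted p under 0.05 it called 10.5% of genes, and 5 of 28 members (17.9%), namely Ift74, Bbs1, Ahi1, Unc119 and Cc2d2a. With the replicate number as a block it called 12.3% of genes and 3 of 28 members, without Unc119 and Cc2d2a, and again 0 genes at an adjusted p under 0.05. The gaps of the HZ and KO arrays did not overlap for 5 members (17.9%, against 8.30% of genes), namely Ift74, Bbs1, Unc119, Arl3 and Bbs7. For Ift74 the gap between the probes differed by 0.35 between the groups (standard error 0.086, adjusted p = 0.299), and for Bbs1 by 0.42 (standard error 0.11, adjusted p = 0.308). For Ahi1 the gap differed by -0.38 (standard error 0.12, adjusted p = 0.370) and for Unc119 by -0.47 (standard error 0.18, adjusted p = 0.423). Arl6 and Dync2li1 had 1 tested probe each.

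**Figure D4:**
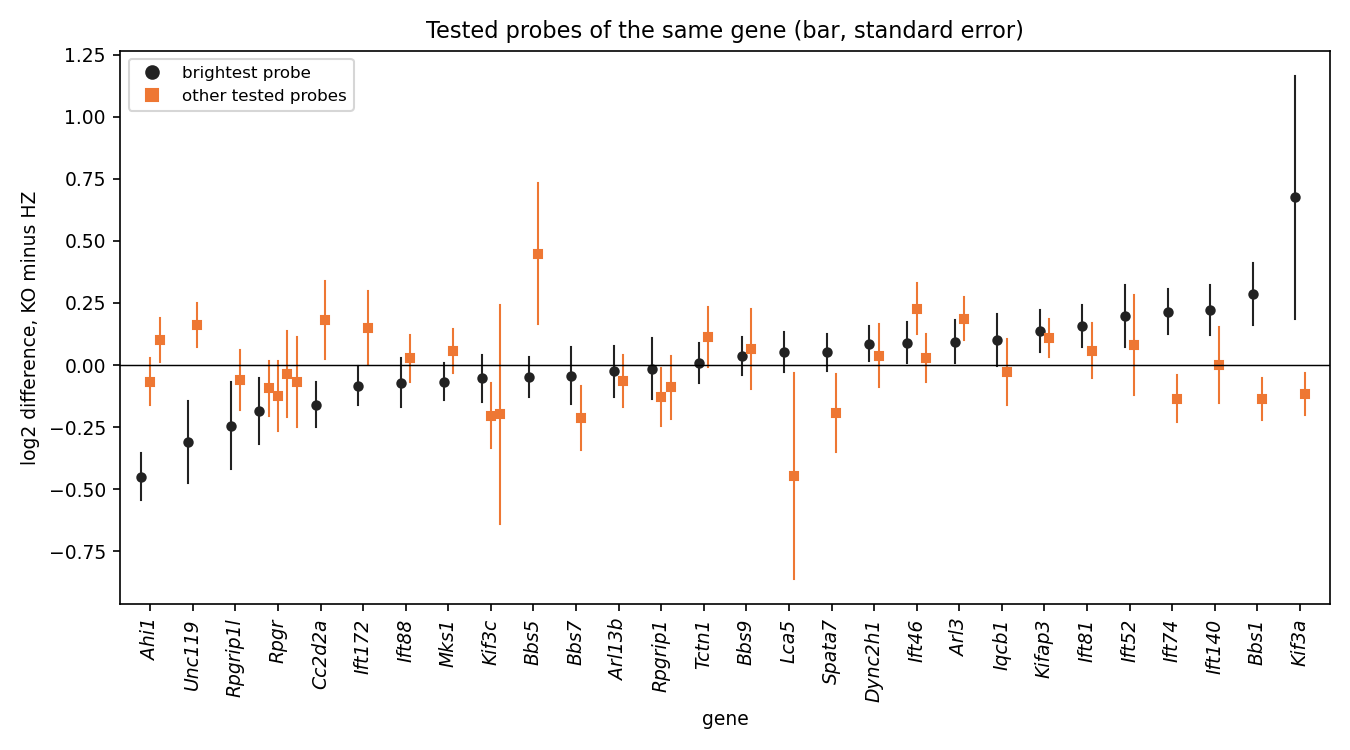
Log2 difference, KO minus HZ, of each tested probe of the 28 members with 2 or more, ordered by the brightest probe (black circles, others as orange squares), with bars for the standard error. The brightest and second probes of Unc119 (-0.31 and 0.16), Ift74 (0.21 and -0.14) and Bbs1 (0.29 and -0.14) lie on opposite sides of 0.

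Other genes of the cilium gave a similar picture. Of 75 listed genes, 67 were tested, with a median difference of 0.058 and 44 positive values, and 0 passed either pair of adjusted thresholds in limma. At an unadjusted p under 0.05, 4 were higher and 1 was lower, 5.97% and 1.49% beside the background of 5.81% and 3.49%. Under the block the same threshold gave 7 higher and 2 lower, with Ttc30a2 at -0.45 (-0.27 without KO replicate 3) besides the 1, where 6.75% of all genes were higher and 5.77% lower. Tmem107, a transition zone membrane protein, had HZ values of 2.93, 2.81, 2.75 and 2.70 and KO values of 3.18, 3.20, 3.31 and 3.73. The groups did not overlap, and the difference of 0.56 (standard error 0.14, adjusted p = 0.403) was a 1.47-fold higher signal. The difference was 0.14 with normexp background correction. Without KO replicate 1 it was 0.62 (limma adjusted p = 0.490), which passed the looser pair of thresholds. Tmem231, which acts in the same membrane complex, had HZ values of -0.56, -0.51, -0.71 and -0.50 and KO values of -0.41, -0.37, -0.38 and -0.049. The groups did not overlap, with a difference of 0.27 (standard error 0.11, adjusted p = 0.586), or 0.016 with normexp.

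Bbip1, a small BBSome subunit, had HZ values of -0.68, -0.70, -0.90 and -0.77 and KO values of -0.61, -0.44, -0.44 and -0.46. Its groups did not overlap, and the difference was 0.27 (standard error 0.087, adjusted p = 0.498), or 0.18 with normexp background correction. Mkks, a chaperonin-like protein that helps the BBSome assemble, had HZ values of 1.78, 1.98, 1.75 and 1.96 and KO values of 2.17, 2.07, 2.06 and 2.57. KO replicate 4 was the highest array, the groups did not overlap, and the difference was 0.35 (standard error 0.13, adjusted p = 0.574), which normexp turned to -0.027. Ccdc39, a protein of motile axonemes, had HZ values of -0.70, -1.0, -0.78 and -0.82 and KO values of -1.05, -1.16, -1.03 and -1.12. All KO arrays were below all HZ arrays, by -0.26 (standard error 0.090, adjusted p = 0.532), or -0.015 with normexp. Of the 13 genes of motile cilia, Ccdc40 had no named probe, and Dnah5, Dnah11, Rsph1, Rsph4a, Hydin and Spag6 were not tested, being well above background on 0 or 1 of 8 arrays.

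The label of the cells was checked against marker genes, and those of rods were bright on every array. All 11 rod markers were tested and 0 passed an adjusted threshold, with a median difference of -0.13. Nrl, the brightest, had HZ values of 7.30, 7.15, 7.22 and 6.94 and KO values of 7.28, 7.03, 7.12 and 7.12. The summed signal of the rod markers, in multiples of each array's 75th percentile, was 990, 850, 914 and 1086 for HZ and 948, 827, 818 and 828 for KO. HZ replicate 4 was the highest and the groups overlapped, with each KO array below the HZ array of its number. Of the 11 rod markers, 10 had a negative difference, with pair medians of -0.082, -0.089, -0.095 and -0.36. The number was 8 with the authors' processed values or without HZ replicate 4, and 7 without HZ replicate 1 or KO replicate 2, and the list's median was -0.18 to -0.079 with an array left out, the latter without HZ replicate 4. The 6 cone markers varied more among the HZ arrays than among the KO arrays. Their sums were 12.2, 44.6, 54.5 and 16.4 for HZ and 23.7, 32.5, 31.2 and 35.9 for KO. HZ replicates 1 and 4 were low and HZ replicates 2 and 3 high, and Opn1sw was the brightest. All 6 cone markers had a positive difference, with a median of 0.26 that ran from -0.093 to 0.61 with an array left out, the lowest without HZ replicate 1. The number of positive values was 2 without HZ replicate 1, 3 without HZ replicate 4 and 5 without KO replicate 4. Of the 2 markers of both photoreceptor types, Crx, the brightest, had a difference of 0.14 and Rcvrn one of -0.21 (-0.34 to -0.12 with an array left out). Of 8 markers of amacrine, horizontal and ganglion cells, Gad1, Calb1 and Rbpms were well above background on 0 of 8 arrays, and 3 were tested. Slc6a9, the brightest, had a difference of 0.074 (0.012 without KO replicate 2) and Onecut1 one of 0.18 (-0.0038 without HZ replicate 1). Pou4f1 was at -0.80, or -0.39 without KO replicate 4, with KO replicate 4 at 1.1 against 2.44 to 3.04 on the other KO arrays.

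Markers of other cells were compared between the same groups. Of 10 markers of the retinal pigment epithelium (RPE), 9 were tested and all 9 had a negative difference, with a median of -1.45. Of these, 6 were called lower at the looser thresholds, and 7 under the block. Over all 14844 genes, these thresholds called 1.13% lower and 0.33% higher, and under the block 437 genes lower and 142 higher. At these thresholds, leaving out replicate 3 of either group, or KO replicate 4, left 0 calls over all probes. With any array left out, all 9 RPE markers kept a negative difference, with a median of -1.74 to -1.16. Their sum was 30.9, 13.7, 21.1 and 17.6 for HZ and 12.2, 8.65, 10.5 and 6.73 for KO, led by Dct at HZ values of 4.10, 2.36, 3.34 and 3.15 and KO values of 2.36, 1.67, 2.15 and 0.97. Of 8 microglia markers, 8 had a positive difference, with a median of 0.78 and sums of 1.72, 1.95, 1.8 and 3.88 for HZ and 4.95, 3.77, 2.62 and 2.86 for KO, and Csf1r was the brightest. The median was 0.49 with normexp background correction, and 1.91, 0.92, 0.71 and -0.34 in the 4 pairs. At the looser thresholds 1 of the 8 was called, Tmem119, which was well above background on 1 HZ and 3 KO arrays, and 7 were under the block. The 2 tested red blood cell markers, Hba-a1 and Hbb-bt, differed by 1.51 and 1.70, with summed signals of 0.327, 0.128, 0.124 and 0.137 for HZ and 1.19, 0.36, 0.177 and 0.638 for KO, while Alas2 was well above background on 0 of 8 arrays. Hbb-bt was well above background on 2 HZ and 4 KO arrays. With normexp background correction it differed by 0.71. These 2 were not called (adjusted p = 0.581 and 0.595), except at the looser thresholds under the block. The bipolar median of -0.35 (brightest Cabp5) was -0.51 to 0.0020 with an array left out, and that of the 4 tested progenitor genes, -0.36 (brightest Ccnd1), was -0.68 to 0.010, the highest in both cases without HZ replicate 2. The 3 tested endothelial genes differed by -0.79 (Kdr, the brightest), -0.0054 (Pecam1) and 1.24 (Cldn5). Kdr was at -0.29 without HZ replicate 2 and -0.49 without KO replicate 4, Pecam1 at -0.15 to 0.13 with an array left out, and Cldn5 at 0.78 without HZ replicate 3 and 0.60 with normexp. Kdr, Cldn5 and Ccnd1 were called under the block alone, at the looser thresholds. Of the 6 Muller glia markers, of which Apoe was the brightest, 3 had a positive difference (5 without HZ replicate 2) and 1 was called higher at the looser thresholds, Gfap, with HZ values of -4.51, -4.13, -4.38 and -4.18 and KO values of -3.51, -3.57, -3.79 and -3.08. Its groups did not overlap, and the difference was 0.82 (standard error 0.16, adjusted p = 0.334), or 0.51 with normexp background correction. The part of these cells in the differences of the cilium genes was not tested.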

How the data were processed

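RNA of CD73-positive photoreceptor cells was hybridized to 8 single-color arrays, grouped by the labels into 4 HZ and 4 KO. The authors scanned them and deposited spot values in units of intensity, read with Agilent Feature Extraction 10.7.1.1 per the submitters' notes, after background subtraction, together with marks for outlier spots and for detection. A table of log2 values, shifted by the 75 percentile in GeneSpring, was deposited too and served as an alternative. Set against the scanner values, these are centred on each probe's median, with a slope of 0.997 to 1. The medians of their columns were -0.065, -0.012, -0.027 and 0.20 for HZ and -0.010, 0.061, -0.019 and 0.033 for KO.

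From the intensities of 59305 spots that were not controls, log2 signals were taken, less the 75th percentile of the same array (882 to 1024 units). Outlier spots were dropped, and repeated spots of a probe averaged. Gene names came from the RefSeq annotation of GRCm38.p6, by accession, and 32994 of 56605 probes matched. A probe was tested if well above background on at least 4 arrays with at least 3 values in each group, which held for 34303 probes. Between 59.5% and 64.6% of probes were detected in this way on each array, and precision is limited by the number of arrays. The test between groups was two-sided, by limma 3.58.1 (lmFit, eBayes) under R 4.3.3 with the package data.table in version 1.17.8, using Benjamini-Hochberg adjustment over all tested probes. The code was tested on simulated data. A gene is given by its probe with the highest mean. Plots were drawn with matplotlib 3.10.9.

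The members and lists were chosen with earlier results of these data known, so lists are described by counts and medians beside those of all genes. Named are the 3 members of each role group with the smallest unadjusted p, members with an unadjusted p under 0.05, and Cep290, Rpgr, Rpgrip1, Ift88, Kif3a, Arl3, Pde6d and Unc119. Of the other cilium genes, those with an unadjusted p under 0.05 are named, and of each marker list the brightest gene. Dync2h1, Ttc8, marker genes other than the brightest, other cilium genes named under the block, other members named at the end of a range or in a count, and the promoter motifs were chosen after the values were seen.

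The pairing by replicate number comes from the labels. After subtraction of the group means, r across probes was 0.164 to 0.337 between arrays of the same number, over the minimum of 0.1 in 4 of 4 pairs. Between arrays of different numbers it was -0.34 to 0.118. The highest of these, HZ replicate 1 with KO replicate 3, also passed the minimum but lay below every pair of the same number. The numbers were therefore taken to pair the arrays. Standard errors and p-values given without the block ignore this pairing. The alternatives comprised quantile normalization, normexp on the median spot signal (offset 50), a percentile taken over detected probes, a filter on dim probes that was absent or stricter, the t-test of the methods, eBayes with trend and robust settings, a block for the replicate number, the authors' values, the mean of a gene's probes, each array left out and, chosen after seeing the data, the second brightest probe.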

Additional observations from a re-analysis of the deposited data

Results flagged for a closer look

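In 14 of 100 groups of 4 arrays, 1 array lay far from the others relative to the range, by Dixon's criterion, where chance gives about 5 for independent groups. These groups share the same arrays and include counts of non-uniform spots, so the 2 numbers cannot show an excess. Some of the 14 lie within a narrow range. The widest gaps were those of Kif3a on HZ replicate 2, at -0.16, against 1.90 to 2.22 on the other HZ arrays, and of Ttc8 on KO replicate 2, at 1.2, against 3.46 to 3.65 on the other KO arrays. Without that array the difference of Kif3a was 0.12 in place of 0.68, and that of Ttc8 0.25 in place of -0.35.

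KO replicate 4 was apart for Bbs1, at 4.92, against 4.49 to 4.53, for Pde6d, at 4.64, against 4.36 to 4.40, and for Kif3a, at 2.40, against 2.10 to 2.14. Replicate 1 was apart in both groups for Ift122, with HZ at 3.66, against 3.39 to 3.42, and KO at 3.71, against 3.51 to 3.54. HZ replicate 1 was apart for Ift140, at 2.47, against 2.28 to 2.31. Kifap3 was apart on HZ replicate 3, at 2.84, against 2.74 to 2.74, and on KO replicate 1, at 2.74, against 2.94 to 2.98. Ift46 was apart on HZ replicate 2, at 3.26, against 3.05 to 3.08, Bbs9 on HZ replicate 4, at 4.34, against 4.45 to 4.47, and Spata7 on KO replicate 3, at 0.097, against 0.045 to 0.053. HZ replicate 4 carried 458 non-uniform spots, where the remaining HZ arrays had 2 to 22.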

How the results depend on the processing

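Under 18 alternatives, the second brightest probe aside, 0 members were called at the stricter and at the looser thresholds. At an unadjusted p under 0.05, 4 members became 2 with quantile normalization, without a filter on dim probes and with the mean of a gene's probes, 8 with the methods' t-test, 7 with trend and robust eBayes, and 1 to 6 with an array left out, the fewest without HZ replicate 3 or KO replicate 4. The members' median of 0.039 was 0.084 with normexp background correction, 0.0081 with a percentile taken over detected probes, where that of all genes was -0.0018, and 0.029 to 0.071 with an array left out. That of the other cilium genes was 0.026 to 0.067 with an array left out. The sign was the same under these 18 alternatives for 25 of 49 members.

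Over all probes, the 0 calls at the stricter thresholds became 2 with quantile normalization, 17 with normexp, 2 with the methods' t-test and 3 with trend and robust eBayes. At an unadjusted p under 0.05, 2803 probes passed, and 2018 to 4997 with an array left out, the most without HZ replicate 2. The 357 calls at the looser thresholds became 41 without a filter on dim probes, where more probes were tested, and 1167 with the replicate number as a block, which left the members' counts as they were, with Bbs1 in place of Arl6 among those at an unadjusted p under 0.05. With an array left out they ranged from 0 when replicate 3 of either group or KO replicate 4 was dropped to 1734 when HZ replicate 2 was. Dropping HZ replicate 1 left 1 call, KO replicate 2 left 57 and KO replicate 1 left 197. Of the calls, 78.2% were lower in KO, 63.6% with quantile normalization and 54% without HZ replicate 4.

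Signs turned for 6 of 22 named members. Rpgrip1 was 0.0099 with quantile normalization, 0.037 with normexp, 0.0022 with the authors' values and -0.095 to 0.083 with an array left out. Pde6d was -0.047 with quantile normalization, -0.0058 with the percentile over detected probes and -0.039 to 0.084 with an array left out. Arl13b was 0.023 with normexp and -0.065 to 0.028 with an array left out. Normexp also turned Ift88 to 0.095 and Bbs2 to -0.0086, and the mean of the probes turned Cc2d2a to 0.011. The second brightest probe turned Ift74 to -0.14, Ift88 to 0.026, Ift140 to -0.00074, Bbs1 to -0.14, Cc2d2a to 0.18, Kif3a to -0.12 and Unc119 to 0.16. The cause of these changes was not tested. For Kif17 and Rp2, with mean HZ signals of -3.66 and -3.09, the standard errors were 0.18 and 0.080, and what signal over background contributes to them was not tested.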
